A study of Mus musculus with 4 samples.

Results

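The mesenchymal transcription factors examined here were *Twist1*, *Twist2*, *Snai1*, *Snai2*, *Zeb1*, *Zeb2*, *Prrx1*, *Prrx2*, *Runx1* and *Runx2*. They were found as the rows of the deposited transcript table that carry one of these symbols, which gave 22 tested transcripts of 10 genes, out of 34200 transcripts of 21945 genes in the table. NIH/3T3 cells, a mouse line of embryonic fibroblast origin, had been transfected for 48 h with *Setd2* siRNA (KD) or with Scrambled siRNA that targets no gene (WT), both at 10 nM and with the same lipid reagent, so that WT cells were transfected cells as well. Each group had 2 libraries of polyadenylated RNA prepared with a stranded kit. KD cells received 2 *Setd2* siRNAs together. The design names 3 independent transfections, and the labels tie no library to a transfection, so the spread between libraries may be partly technical. *Setd2* encodes the methyltransferase that places trimethylation on lysine 36 of histone H3, and its transcript had a level of 923 in KD and 3680 in WT, a log2(fold change) of -1.99 ± 0.09 (SE, n = 2 per group).

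Cells of mesenchymal type, such as fibroblasts, are kept apart from epithelial cells by a small set of transcription factors. The Snail and Zeb proteins are zinc finger repressors that bind E-box sequences in epithelial genes such as *Cdh1*, while the Twist proteins are basic helix-loop-helix factors that bind E-boxes as dimers with E proteins. The Prrx proteins are paired-type homeodomain factors of limb and craniofacial mesenchyme, and the Runx proteins bind DNA with the partner CBFβ and direct blood cell and bone development.

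Of the 10 genes, 3 changed in KD. *Twist2* rose to 1.67 times and *Snai1* to 1.38 times their WT levels, whereas *Prrx1* fell by 15.9% as the sum of its transcripts, with 1 of its 3 transcripts past the threshold. The other 7 genes did not pass the test, and the paralogs *Twist1* and *Snai2* were not among those that rose. All levels are normalised estimated counts, computed for each group from the deposited mean and effect, and a change was called when the q-value of the likelihood ratio test of Sleuth, which compares fits with and without the condition, was under 0.05. By this call 3 of 22 transcripts changed, 2 higher and 1 lower in KD. Among all transcripts tested 12.5% were called, 7.26% as higher and 5.21% as lower, so the share of members called was close to that background. When effects were divided by that of *Actb*, 0 members were called higher and 11 lower, and 33.5% of all transcripts were called. Correction for GC content gave 1 higher and 2 lower, where 15.4% of all transcripts were called. Centring on the median effect gave 2 and 2, where 17.9% of all were called. By the deposited gene q-value, which combines the transcripts of a gene and carries no direction, 3 of 10 members passed, against 24.0% of all genes. A transcript was called higher in 2 of 10 genes and lower in 1, against 10.1% and 7.43% of all genes. All 10 members had a mean level of at least 100, as did 12210 of all 21945 genes, so these backgrounds were not matched for level. When q-values were taken over transcripts with a mean of at least 100 counts, 4 of 17 member transcripts were called, against 34.2% of all such transcripts. The median log2 ratio of summed levels was 0.00 over the 10 members and 0.04 over the 12210 genes with a mean level of at least 100.

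The tables used here give no value per library, so each transcript is described by its level in both groups and by the SD between the libraries of a group, which was computed from the deposited variances and is shared by KD and WT. The same variances show whether the 2 KD and the 2 WT values overlapped. They did not overlap for 12 of the 22 member transcripts, they overlapped for 7, and for 3 this could not be determined. Among all transcripts 54.8% did not overlap, so this share in the members was no different from the table as a whole. With 2 libraries per group, 2 degrees of freedom remained for the spread.

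**Figure D1:**
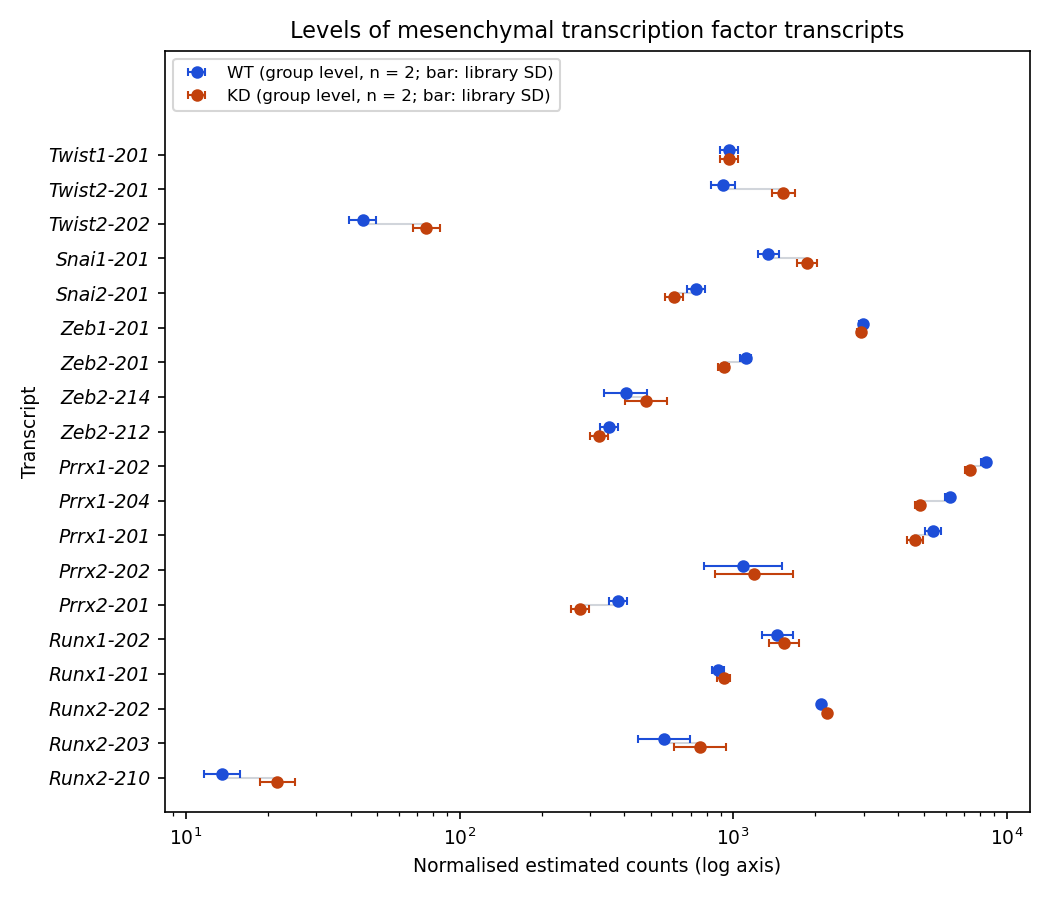
Normalised estimated counts (log axis) of the 19 member transcripts whose mean was 10 or more in WT (blue) and KD (orange); points are group levels (n = 2) and bars are the SD between libraries of a group. *Prrx1* transcripts had the highest counts, not divided by length, in both groups, and KD lay above WT for *Twist2* and *Snai1*.

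The member genes were ordered by level per kb of transcript. In WT, *Prrx1* had 3718 counts per kb, followed by *Prrx2* with 1277, *Snai1* with 830, *Twist2* with 708 and *Twist1* with 596. *Zeb1* had 514 counts per kb, *Runx1* 457, *Runx2* 453, *Snai2* 361 and *Zeb2* 350. The steps from *Prrx1* to *Prrx2*, from *Prrx2* to *Snai1*, from *Twist1* to *Zeb1* and from *Runx2* to *Snai2* had a 95% confidence interval of the ratio that excluded 1, computed from the standard errors of the transcripts as if these were independent, and the other 5 steps did not. In KD, *Twist2* (1180 counts per kb) stood before *Snai1* (1149), the step from *Prrx2* (1307) to *Twist2* did not exclude a ratio of 1, and that from *Snai1* to *Twist1* (595) did. *Snai2* was the lowest in KD at 300.4 counts per kb, next to *Zeb2* at 335.

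The Twist pair is formed by short basic helix-loop-helix factors that are needed for cranial mesoderm and for dermis. *Twist2* (ENSMUSG00000007805.4) had 2 tested transcripts. The main one, *Twist2-201* (ENSMUST00000007949.3, GRCm38 chr1:91801461-91848028, plus strand), had 2 exons and a coding sequence of 483 bases, and *Twist2-202* (chr1:91801470-91803994) was a single exon with the same coding sequence. The level of *Twist2-201* was 1528 in KD and 917 in WT, with an SD between libraries of 0.14 on the log2 scale. KD and WT libraries did not overlap. The log2(fold change) was 0.74 ± 0.14 (SE, n = 2 per group, 95% confidence interval 0.46 to 1.02), with a likelihood ratio q-value of 0.0250. After division by the reference gene *Actb*, which itself rose in KD (log2(fold change) 0.46), it was 0.28 (q = 0.122). *Twist2-202* was far less abundant, with 75.6 in KD and 44.2 in WT. Its log2(fold change) of 0.77 ± 0.31 was of the same size, its groups did not overlap either, and its q-value was 0.0867. The difference between the effects of the 2 transcripts was -0.03 on the log2 scale (95% confidence interval -0.71 to 0.64), and *Twist2-201* held 95.3% of the summed level in KD and 95.4% in WT.

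*Twist2* is overlapped on the opposite strand by the non-coding gene *Gm29100*, which shares 1477 exonic bases with it. *Gm29100* rose as well, from 92.8 in WT to 177 in KD, with a log2(fold change) of 0.93 ± 0.25 (SE, n = 2 per group) and a likelihood ratio q-value of 0.0383. The kit keeps the strand of the RNA, but whether the strand was used in quantification is not given in the sources used here, so reads of the overlapping part may have been shared between both genes. *Twist2* was the more abundant, by 1180 to 40.1 counts per kb in KD.

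*Twist1* (ENSMUSG00000035799.6, chr12:33957671-33959829, plus strand) had 1 tested transcript with a level of 969 in KD and 970 in WT. The libraries of both groups overlapped, and the log2(fold change) was -0.00 ± 0.12 (SE, n = 2 per group, 95% confidence interval -0.23 to 0.23). Its likelihood ratio q-value was 0.186, and the q-value of the Wald test, which sets the effect against its standard error, was 0.998. The effect on *Twist2* was larger than that on *Twist1* by 0.74 on the log2 scale (95% confidence interval 0.38 to 1.10). This was 1 of 5 comparisons between paralogs, each made on the most abundant transcript, which were chosen after the values were seen.

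**Figure D2:**
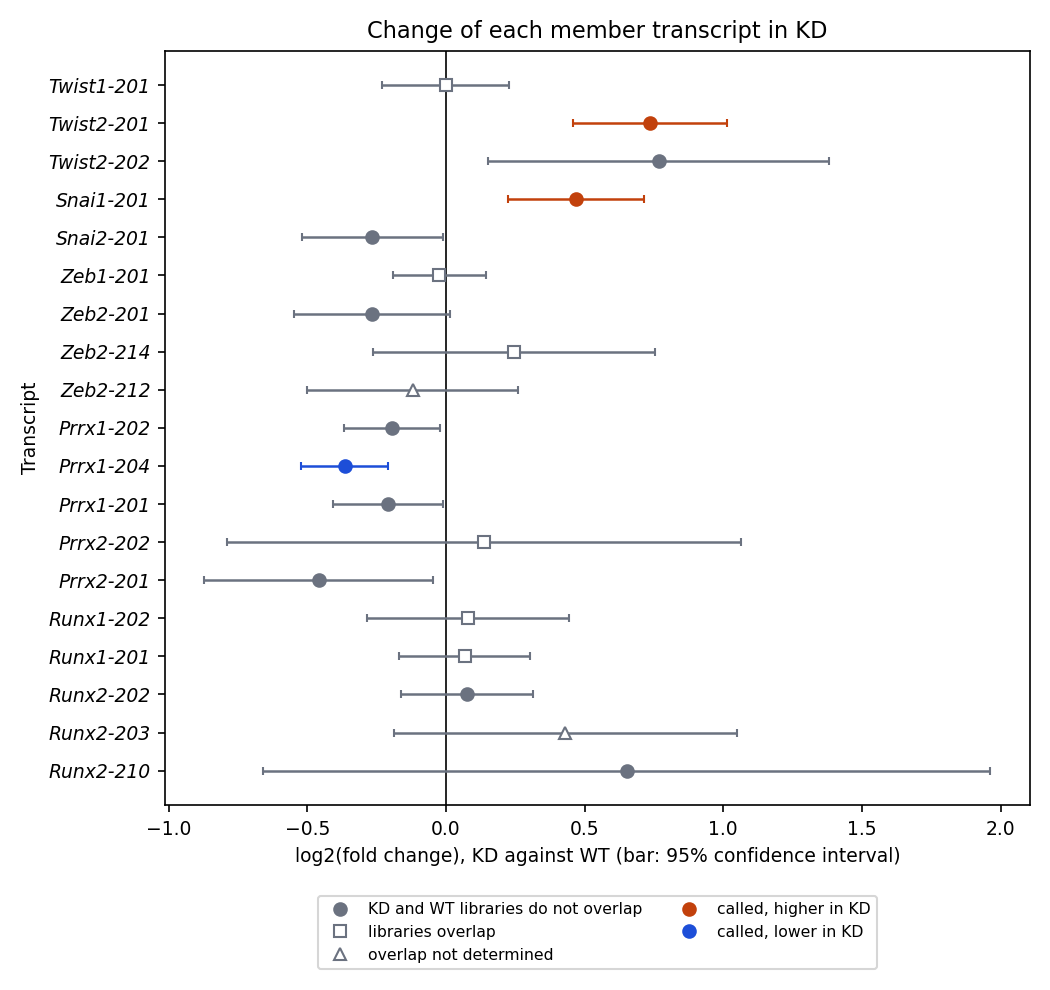
log2(fold change) in KD against WT for the 19 member transcripts whose mean was 10 counts or more, with 95% confidence intervals (n = 2 per group); orange and blue points were called higher and lower, filled points had KD and WT libraries that did not overlap. *Twist2-201* at 0.74 and *Snai1-201* at 0.47 were called higher and *Prrx1-204* at -0.37 was called lower.

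The Snail pair consists of zinc finger repressors of the same family, of which SNAI1 acts at gastrulation and SNAI2 in neural crest and many adult mesenchymal cells. *Snai1* (ENSMUSG00000042821.7, ENSMUST00000052631.7, chr2:167538195-167542814, plus strand) had 3 exons. Its level was 1863 in KD and 1346 in WT, with an SD between libraries of 0.12 on the log2 scale and no overlap of the groups. The log2(fold change) of 0.47 ± 0.12 (SE, n = 2 per group, 95% confidence interval 0.22 to 0.71) passed at a likelihood ratio q-value of 0.0464, close to the threshold, and lost the call with limma's moderated test (adjusted p = 0.0712) and after correction for GC content (0.30, q = 0.0940) or division by *Actb* (0.01, q = 0.956). *Snai2* (ENSMUSG00000022676.7, chr16:14705852-14709385, plus strand) had a level of 607 in KD and 730 in WT. Its groups did not overlap, in the direction opposite to *Snai1*, and its log2(fold change) of -0.26 ± 0.13 had a likelihood ratio q-value of 0.112. The effects on *Snai1* and *Snai2* differed by 0.73 on the log2 scale (95% confidence interval 0.38 to 1.09) before correction for GC content. The GC content of the transcripts was 59.8% for *Snai1* and 42.6% for *Snai2*. After that correction *Snai2* was at -0.08 (q = 0.822), beside 0.30 for *Snai1*, so the measured contrast was smaller, and no interval was computed for it.

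The promoters of the 2 genes that rose are shown because Snail, Zeb and Twist factors share the E-box as binding word, and *Snai1* is known to bind its own promoter. Both stretches are the 250 bases before the annotated start from RefSeq on GRCm38.p6, written from 5′ to 3′ on the strand of the gene, with CAGGTG or its reverse complement CACCTG in capitals. The *Twist2* stretch is chr1:91801211-91801460 and the *Snai1* stretch is chr2:167537945-167538194.
*Twist2* promoter: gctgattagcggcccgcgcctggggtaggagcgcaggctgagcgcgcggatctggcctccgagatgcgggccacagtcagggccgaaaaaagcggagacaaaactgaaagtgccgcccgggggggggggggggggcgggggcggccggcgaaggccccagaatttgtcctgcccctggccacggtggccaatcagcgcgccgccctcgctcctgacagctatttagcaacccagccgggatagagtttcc
*Snai1* promoter: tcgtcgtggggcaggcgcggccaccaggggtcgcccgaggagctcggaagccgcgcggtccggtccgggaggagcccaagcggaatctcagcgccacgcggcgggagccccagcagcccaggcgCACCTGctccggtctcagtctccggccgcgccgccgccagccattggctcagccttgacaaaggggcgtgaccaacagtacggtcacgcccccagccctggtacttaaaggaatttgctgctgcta

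The *Snai1* stretch held the word once and the *Twist2* stretch did not hold it on either strand. The *Twist2* stretch lies within the span of *Gm29100*. For *Snai1* and *Twist2* the GC content was 70.0% and 68.8%, against a median of 52.4% over 32851 RefSeq promoter stretches of the same length. The RefSeq table had 12 promoters for 8 of the 10 members. These were not all separate stretches, since *Zeb2* gave several and some of its windows overlapped. In the 250 bases before the start of each, 2 held CAGGTG or CACCTG, those of *Snai1* and of the distal *Runx1* start, against 17.2% of all promoters. The wider E-box CANNTG, which includes that word, was found in 3 of the 12 and in 66.2% of all promoter stretches of that length. The Runx word TGTGGT or its reverse complement ACCACA was found in 1, at the distal *Runx2* start, and in 14.0% of all. A match is a description of the letters in these windows.

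The Zeb pair encodes large repressors with 2 zinc finger clusters and a homeodomain-like region. *Zeb1* (ENSMUSG00000024238.15, chr18:5591864-5775467, plus strand) had 1 tested transcript, with 2934 in KD and 2984 in WT. The libraries overlapped, and the log2(fold change) was -0.02 ± 0.09 (SE, n = 2 per group, 95% confidence interval -0.19 to 0.14). The likelihood ratio q-value was 0.0983 and the Wald q-value 0.935. *Zeb1* was thus among the members with the least measured change.

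*Zeb2* (ENSMUSG00000026872.17, minus strand) had 5 tested transcripts, and none was called. *Zeb2-201* (chr2:44987123-45110515), the most abundant, had 923 in KD and 1111 in WT without overlap of the groups, a log2(fold change) of -0.27 ± 0.14 (SE, n = 2 per group) and a q-value of 0.114. *Zeb2-214* went in the other direction, with 480 in KD and 405 in WT, a log2(fold change) of 0.24 ± 0.26 and overlapping libraries. *Zeb2-212* had 323 in KD and 351 in WT. The share of *Zeb2-201* in the summed level was 52.5% in KD and 59.2% in WT, but the difference between its effect and that of *Zeb2-214* was -0.51 with a 95% confidence interval that included 0 (-1.09 to 0.07). Only 1.94% of the 31-base words of *Zeb2-201* were held by no other tested transcript, and 3.23% of those of *Zeb2-214*, so reads were assigned between them largely by estimation. The 2 remaining transcripts, *Zeb2-202* and *Zeb2-211*, had WT levels of 2.53 and 5.12 and standard errors above 1 on the log2 scale. The summed level of *Zeb2* was 1756 in KD and 1875 in WT, with a gene q-value of 0.104, and that of the antisense gene *Zeb2os*, which shares 379 exonic bases with *Zeb2*, was far lower, with 68.1 in KD and 77.5 in WT for its main transcript (q = 0.346).

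The Prrx pair comprises the most abundant members. *Prrx1* (ENSMUSG00000026586.16, minus strand) had 3 tested transcripts that share the first 599 coding bases and part at the end, so that the proteins differ in their C-terminus. *Prrx1-201* (chr1:163245119-163313710) has a coding sequence of 738 bases, *Prrx1-202* (chr1:163245119-163313672) one of 654 bases with an extra exon, and *Prrx1-204* (ENSMUST00000174397.2, chr1:163252866-163313668) one of 603 bases that stops just past the exon border and is followed by a 3′ end of its own. The ends of the coding sequences, from GENCODE M21, are printed to show where *Prrx1-204*, the transcript that was called, parts from the other isoforms; the last 30 shared bases are in lower case and the bases after them, down to the stop codon, in capitals.
*Prrx1-201*: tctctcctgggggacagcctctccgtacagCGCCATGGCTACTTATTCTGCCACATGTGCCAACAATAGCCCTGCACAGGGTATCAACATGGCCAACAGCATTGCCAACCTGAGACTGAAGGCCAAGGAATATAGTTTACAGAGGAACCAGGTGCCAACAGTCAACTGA
*Prrx1-202*: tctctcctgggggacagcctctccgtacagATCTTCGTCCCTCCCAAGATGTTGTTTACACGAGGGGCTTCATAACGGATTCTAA
*Prrx1-204*: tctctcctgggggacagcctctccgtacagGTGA

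**Figure D3:**
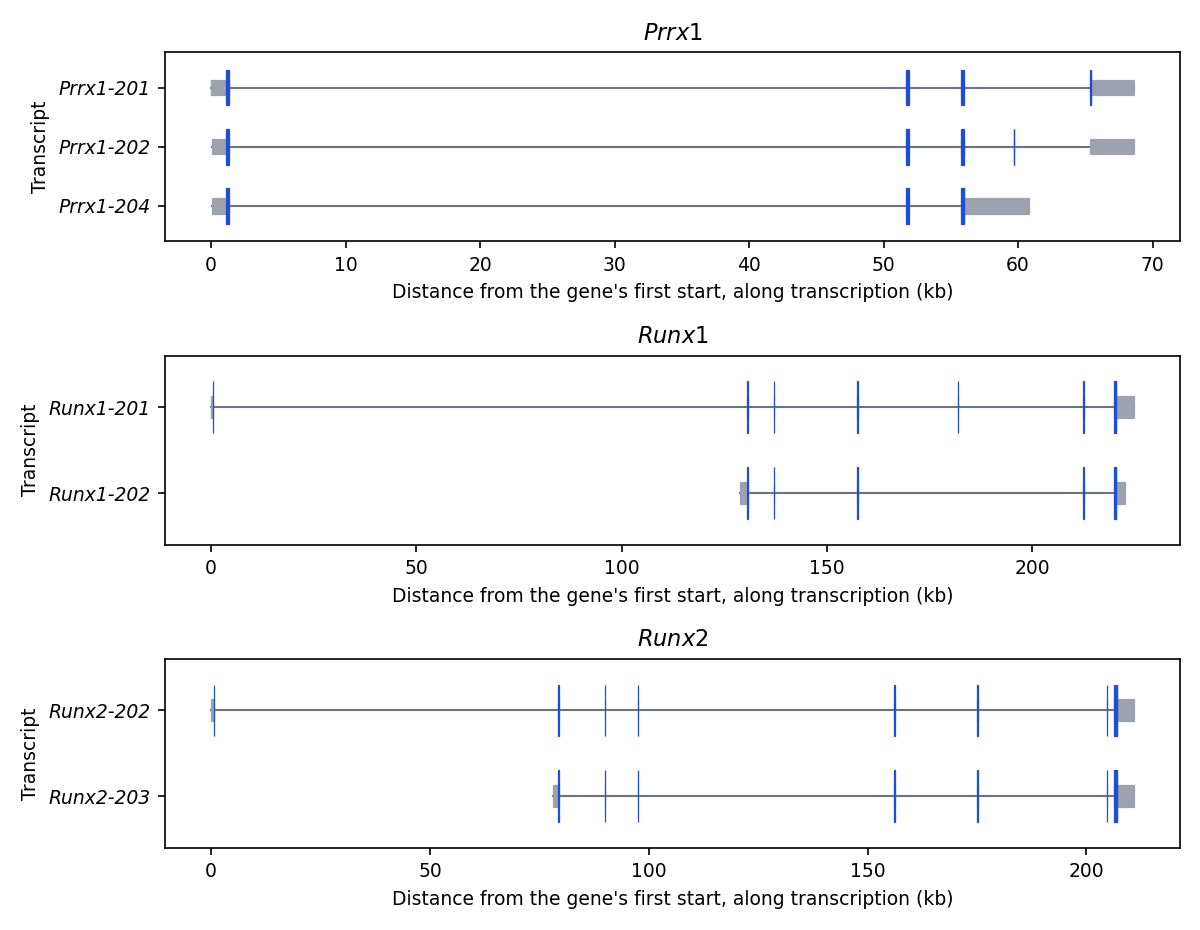
Exons of the *Prrx1*, *Runx1* and *Runx2* transcripts with a mean above 100 counts, as distance in kb from the first start of each gene (x axis), with coding parts in blue and untranslated parts in grey. *Prrx1-204* ends before the last exon of the other isoforms, and *Runx1-202* and *Runx2-203* start at a downstream promoter.

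All *Prrx1* transcripts were lower in KD, and KD and WT libraries did not overlap for any of the 3. *Prrx1-204* had 4810 in KD and 6197 in WT, with an SD between libraries of 0.05 on the log2 scale. Its log2(fold change) of -0.37 ± 0.08 (SE, n = 2 per group, 95% confidence interval -0.52 to -0.21) was called at a likelihood ratio q-value of 0.0250, and limma's moderated test left it just outside the threshold (adjusted p = 0.0502). It was -0.22 after correction for GC content (q = 0.0341) and -0.82 after division by *Actb*. *Prrx1-202* had 7336 in KD and 8399 in WT, a log2(fold change) of -0.20 ± 0.09 and a q-value of 0.0759. It passed when transcripts under 100 counts were left out (q = 0.0450) or effects were centred on the median (q = 0.0356), and was at -0.03 (q = 0.939) after correction for GC content. *Prrx1-201* had 4639 in KD and 5367 in WT, a log2(fold change) of -0.21 ± 0.10 and a q-value of 0.110, and was at -0.04 after correction for GC content. The short isoform thus had the largest measured fall, but its effect differed from that of *Prrx1-202* by 0.17 (95% confidence interval for *Prrx1-202* minus *Prrx1-204*, -0.06 to 0.40) and from that of *Prrx1-201* by -0.15 (-0.41 to 0.10), which both include 0. Of the 31-base words of *Prrx1-204*, 74.1% were held by no other tested transcript, against 1.34% for *Prrx1-201* and 1.13% for *Prrx1-202*. The summed level was 16785 in KD and 19963 in WT, with a gene q-value of 0.00201.

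*Prrx2* (ENSMUSG00000039476.13, plus strand) had 2 tested transcripts that differ at the start. *Prrx2-202* (chr2:30834972-30881222) had 1194 in KD and 1084 in WT, and its SD between libraries of 0.47 on the log2 scale was the largest among member transcripts with a mean above 100 counts. The groups overlapped, with a log2(fold change) of 0.14 ± 0.47 (SE, n = 2 per group, 95% confidence interval -0.79 to 1.07). *Prrx2-201* (chr2:30845059-30881251) had 276 in KD and 380 in WT without overlap, a log2(fold change) of -0.46 ± 0.21 and a q-value of 0.108, and passed after correction for GC content (-0.64, q = 0.0197) or division by *Actb* (-0.92, q = 8.8e-05). The share of *Prrx2-202* was 81.2% in KD and 74.1% in WT, and the difference between the effects of both transcripts was 0.60 (95% confidence interval -0.42 to 1.61). The interval of the difference between *Prrx1* and *Prrx2* also included 0 (-0.33, -1.28 to 0.61).

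The Runx genes are each read from a distal and a proximal promoter, which give proteins with different N-termini. *Runx1* (ENSMUSG00000022952.17) and *Runx2* (ENSMUSG00000039153.16) lie on the minus strand. The most abundant tested transcripts from the distal start were *Runx1-201* (chr16:92601466-92826149) and *Runx2-202* (chr17:44604001-44814797), and from the proximal start *Runx1-202* (chr16:92603656-92697328) and *Runx2-203* (chr17:44604001-44736648). Their coding starts, from GENCODE M21, are printed so that the promoter forms can be told apart; the bases that come before the first stretch shared by both forms are in capitals, and 30 shared bases follow in lower case.
*Runx1-201*: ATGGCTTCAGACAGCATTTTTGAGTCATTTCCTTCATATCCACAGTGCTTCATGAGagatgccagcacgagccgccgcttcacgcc
*Runx1-202*: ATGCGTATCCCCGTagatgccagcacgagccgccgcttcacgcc
*Runx2-202*: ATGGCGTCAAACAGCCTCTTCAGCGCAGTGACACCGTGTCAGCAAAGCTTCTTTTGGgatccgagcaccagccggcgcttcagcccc
*Runx2-203*: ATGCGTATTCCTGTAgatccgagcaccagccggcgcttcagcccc

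Neither promoter form of *Runx1* was called. The forms also differ further on, with 8 exons and 1398 coding bases in *Runx1-201* and 5 exons and 1164 coding bases in *Runx1-202*. The proximal form *Runx1-202* had 1534 in KD and 1451 in WT, with a log2(fold change) of 0.08 ± 0.19 (SE, n = 2 per group), and the distal form *Runx1-201* had 923 in KD and 881 in WT, with 0.07 ± 0.12. The libraries overlapped for both. The proximal form held 62.4% of the summed level in KD and 62.2% in WT, and the effects of both forms differed by 0.01 (95% confidence interval -0.42 to 0.45). The 31-base words that set the forms apart made up 46.9% of *Runx1-201* and 34.4% of *Runx1-202*. They were not confined to the starts, since the last exon ended at 224.684 kb from the first start in *Runx1-201* and at 222.494 kb in *Runx1-202*. The shares therefore do not measure promoter use alone.

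For *Runx2*, the factor required for osteoblasts, the distal form was the main one by estimated level. *Runx2-202* had 2203 in KD and 2090 in WT, with a log2(fold change) of 0.08 ± 0.12 (SE, n = 2 per group) and a q-value of 0.147. The groups did not overlap, since the SD between libraries was 0.03 on the log2 scale, the smallest among the members. The proximal form *Runx2-203* had 755 in KD and 560 in WT, a log2(fold change) of 0.43 ± 0.32 and a q-value of 0.304, and whether its groups overlapped could not be determined. The share of the distal form was 73.7% in KD and 78.3% in WT. The effects of distal and proximal form differed by -0.35 (95% confidence interval -1.02 to 0.31). Only 3.95% of the sequence words of *Runx2-202* were held by no other tested transcript, and 15.8% of those of *Runx2-203*. Reads were therefore assigned between the *Runx2* transcripts largely by estimation, and the shares depend on it. The 2 rare forms, *Runx2-210* and *Runx2-207*, had levels of 21.6 and 8.37 in KD and 13.6 and 6.16 in WT, and neither was called. The antisense gene *Runx2os1*, which shares 519 exonic bases with *Runx2*, had 61.0 in KD and 50.3 in WT (q = 0.359).

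**Figure D4:**
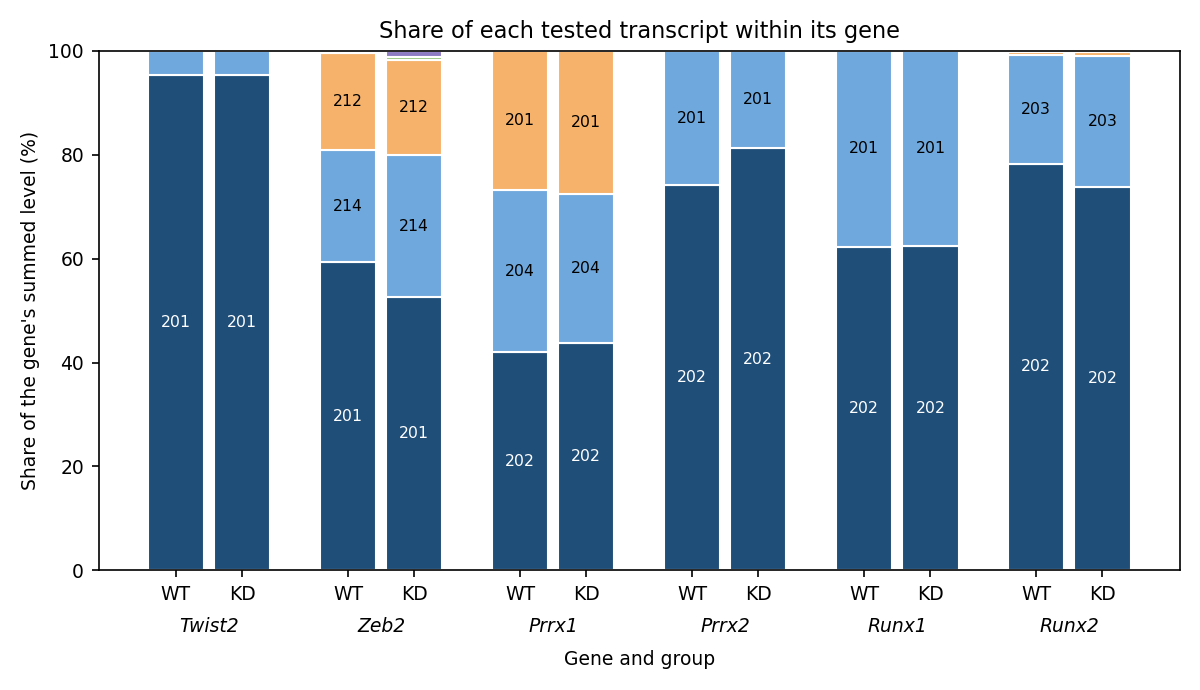
Share of each tested transcript in the summed level of its gene (percent) in WT and KD for the 6 members with more than 1 tested transcript; numbers inside the bars are transcript names. The largest shifts, in *Zeb2-201* (59.2% to 52.5%) and *Prrx2-202* (74.1% to 81.2%), had effect differences whose intervals included 0.

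Over all members, 22 pairs of transcripts of the same gene were compared, and the 95% confidence interval of the difference between effects excluded 0 in 0 of 22. The errors of isoforms that share reads are not independent, which these intervals do not take into account. Between paralogs, it excluded 0 for the Twist and Snail pairs and included 0 for the Zeb (0.24, -0.08 to 0.57), Prrx and Runx (0.00, -0.43 to 0.44) pairs. The effects compared in this way were not corrected for GC content. A difference of effects that includes 0 does not show that 2 transcripts behaved alike, and for *Prrx2* and the rare *Zeb2* and *Runx2* forms the intervals were wide.

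The targets and partners of these factors were read from lists of genes that act with them. *Cdh1*, the epithelial cadherin that the Snail and Zeb proteins repress, had a level of 140 in KD and 90.3 in WT, with a log2(fold change) of 0.63 ± 0.25 (SE, n = 2 per group) and a q-value of 0.0840, so it was not called. *Vim*, the intermediate filament of mesenchymal cells, was not called either, with 84556 in KD and 80989 in WT for its main transcript. Of 50 listed epithelial genes 20 were tested, and 4 of these had a mean level under 10. A transcript was called higher in 1 gene (5%) and lower in 1 (5%), against 10.1% and 7.43% of all genes. *Pkp1*, which encodes a desmosomal protein, rose (0.98 ± 0.21). *Jup*, whose product links desmosomes and adherens junctions, fell (-0.71 ± 0.10). When q-values were taken over transcripts with a mean of at least 100 counts, 3 of 13 epithelial transcripts were called, against 34.2% of all such transcripts. In counts not divided by length, the summed level of the epithelial genes was 5637 in KD and 6565 in WT, small beside that of the mesenchymal markers. *Jup* alone had 1709 in KD and 2750 in WT, so the lower sum in KD does not describe the list as a whole. Of 35 mesenchymal markers 32 were tested, and *Cdh11*, *Fap* and *Postn* were not among the transcripts tested. In this list 7 genes (21.9%) had a transcript called higher and 7 (21.9%) had one called lower, against 10.1% and 7.43% of all genes. When q-values were taken over transcripts with a mean of at least 100 counts, 26 of 55 were called, against 34.2% of all such transcripts. Among called transcripts with a mean of at least 100 counts, the largest rises were in minor transcripts of the collagen receptor gene *Ddr2* (1.83 ± 0.41) and of the matrix protein gene *Fn1* (1.25 ± 0.32), and in the matrix protease gene *Mmp2* (1.03 ± 0.08). The main transcript of *Fn1* rose as well (0.69), whereas that of *Ddr2* was not called (-0.18), and the summed level of *Ddr2* was 19048 in KD and 21171 in WT. The collagen gene *Col3a1* (-0.92 ± 0.12), *Fstl1*, which encodes a secreted glycoprotein (-0.91 ± 0.08), and the adhesion molecule gene *Ncam1* (-0.82 ± 0.11) fell the most. The median log2 ratio of summed levels was -0.05 over the 30 mesenchymal markers and -0.02 over the 10 epithelial genes with a level of at least 100. In bulk RNA, fewer cells of a type and less RNA per cell cannot be told apart. Markers of other cell types (15 of 22 tested, none called) had a summed level of 1349 in KD and 1258 in WT. Of these 15 genes, 5 had a mean level under 10 and only 4 reached 100.

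Among 31 partner genes, which encode dimer partners, co-repressors and co-activators, 28 were tested, of which 6 (21.4%) had a transcript called higher and 2 (7.14%) one called lower, against 10.1% and 7.43% of all genes. For *Tcf3* and *Tcf4*, among these 6, only a minor transcript was called. When q-values were taken over transcripts with a mean of at least 100 counts, 19 of 68 partner transcripts were called, against 34.2% of all such transcripts. Among called transcripts with a mean of at least 100 counts, that of *Wwtr1*, which encodes the co-activator TAZ that binds Runx and other factors, had the largest rise (1.10 ± 0.13, SE, n = 2 per group). The co-repressor genes *Ctbp1* (0.78 ± 0.14, with 0.52 in its main transcript) and *Tle3* (0.49 ± 0.14) followed. *Hdac2* (-0.69 ± 0.18, with -0.40 in its main transcript) and *Rcor1* (-0.30 ± 0.09), which encode parts of histone deacetylase complexes, fell. *Cbfb*, the shared partner of the Runx proteins, was not called in any of its transcripts, with a log2(fold change) of -0.12 ± 0.08 in the main one.

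The E proteins that dimerise with Twist factors showed calls only in minor transcripts. For *Tcf4* a transcript with 173 in KD and 53.1 in WT rose (1.70 ± 0.45, SE, n = 2 per group, q = 0.0451), and its main transcript did not pass (0.12 ± 0.09, q = 0.0869). The gene q-value of *Tcf4* was 0.0202. For *Tcf3* a transcript with 169 in KD and a level of 0 in WT was called higher (q = 0.0194), for which no fold is given, and the summed level of the gene was 5621 in KD and 4735 in WT with a gene q-value of 0.620. *Tcf12* was not called, with -0.41 ± 0.14 and a q-value of 0.0744 in its main transcript. The Id proteins capture E proteins and so limit Twist dimers. The summed RNA level of each Id gene was lower in KD, but none of the transcripts was called. By the deposited gene q-value *Id2* passed (0.0303), with a summed level of 2303 in KD and 5078 in WT, and *Id1*, *Id3* and *Id4* did not. The second transcript of *Id2* (-1.41) had a Wald q-value of 0.0135. The main transcripts of *Id1* (-0.57 ± 0.33, q = 0.198), *Id2* (-1.09 ± 0.48, q = 0.117), *Id3* (-0.36 ± 0.31, q = 0.395) and *Id4* (-0.62 ± 0.73, q = 0.593) had negative values with wide errors.

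SNAI1 and TWIST proteins are short-lived, and GSK3 marks SNAI1 for ubiquitin ligases. All 22 genes of the turnover list, which holds kinases, ubiquitin ligases and deubiquitinases that act on the members, were tested, and 6 (27.3%) had a transcript called higher and 1 (4.55%) one called lower, against 10.1% and 7.43% of all genes. All 22 had a mean level of at least 100, as did 12210 of all 21945 genes. When q-values were taken over transcripts with a mean of at least 100 counts, 14 of 40 were called, against 34.2% of all such transcripts. *Usp10*, a deubiquitinase gene, rose (0.71 ± 0.09, SE, n = 2 per group), as did *Smurf1* (0.58 ± 0.09), a ligase gene whose product acts on Runx proteins. The kinase genes moved in opposite directions, with *Gsk3a* higher (0.51 ± 0.08) and *Gsk3b* lower (-0.46 ± 0.08) in KD.

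Of 55 other transcription factors of mesenchyme, 43 were tested, and 36 of these had a mean level of at least 100. A transcript was called higher in 6 (14.0%) and lower in 5 (11.6%), against 10.1% and 7.43% of all genes. When q-values were taken over transcripts with a mean of at least 100 counts, 12 of 59 were called, against 34.2% of all such transcripts. The cartilage factor gene *Sox9* (1.07 ± 0.09, SE, n = 2 per group) and *Glis1* (0.77 ± 0.20) were among those that rose, and the Hedgehog effector gene *Gli1* (-0.83 ± 0.16), *Foxc1* (-0.60 ± 0.12) and *Sox4* (-0.53 ± 0.08) fell the most. A further list held 31 genes for which control by RUNX1 or RUNX2 in bone, cartilage or blood cells is known. Of these 22 were tested, and 15 had a mean level of at least 100. A transcript was called higher in 2 (9.09%) and lower in 2 (9.09%), near the 10.1% and 7.43% of all genes. With q-values over transcripts of at least 100 counts, 8 of 29 were called, against 34.2% of all such transcripts. *Spp1*, which encodes osteopontin, rose in a minor transcript (0.97 ± 0.13) and in its main one (0.92), and *Fgfr2* rose (0.66 ± 0.18). The collagen gene *Col1a1* (-0.68 ± 0.15) and the growth factor gene *Csf1* (-0.34 ± 0.08) fell. Of 16 further family paralogs 8 were tested and none was called, but 5 of these 8 had a mean level under 10 and only 1 reached 100. Of the antisense genes listed beside mesenchymal factors *Dnm3os* fell (-0.64 ± 0.08, 2321 in KD and 3608 in WT).

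**Figure D5:**
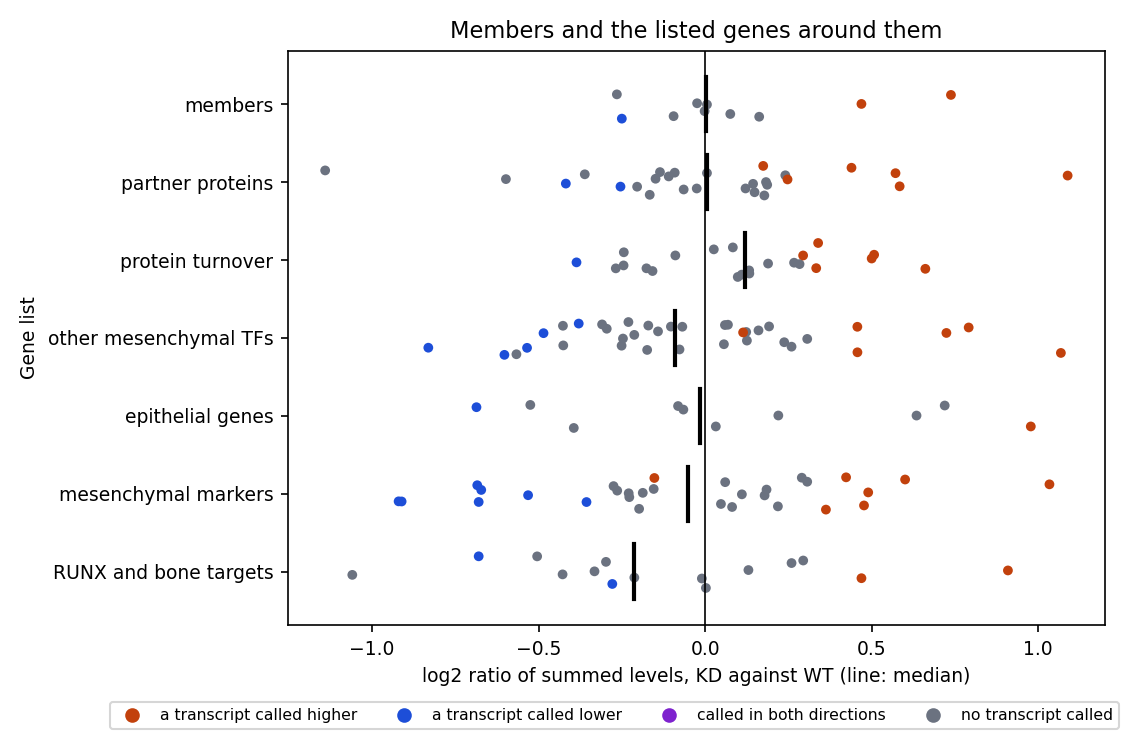
log2 ratio of summed levels, KD against WT (x axis), for each gene with a mean level of at least 100 in the members and the listed gene groups; orange points had a transcript called higher, blue points one called lower, and black lines are medians. The median of the 10 members was 0.00, and each of the 7 groups plotted held points on both sides of 0.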

How the data were processed

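RNA-seq of 2 KD and 2 WT libraries was analysed, grouped by the *Setd2* label. The reads had been trimmed, quantified with Kallisto and compared in Sleuth by the authors; labels also name bcl2fastq 2.17, HISAT2 and GRCm38. The deposited effects, standard errors, means and variances are natural log values, taken by the authors in Sleuth of estimated counts scaled by size factors, plus 0.5. The deposited score is the likelihood ratio statistic, and the deposited p-values and q-values come from the authors' Sleuth tests (likelihood ratio and Wald) over transcripts and genes. These columns hold the authors' own comparison of KD with WT; the calls given here are read from them, since values per library were not analysed here. The depth of each library is therefore unknown, and no counting interval is given.

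Effects were converted to log2. Group levels were the exponential of the mean plus or minus 0.5 times the effect, minus 0.5. The variance between the libraries of a group was obtained by removing the effect from the deposited variance over 4 libraries, and groups were taken not to overlap when the effect exceeded the largest spread this variance allows (tested on simulated data). Transcripts were matched to GENCODE M21 (33720 of 34200, and 22 of 22 members), which gave positions, coding sequences and words of 31 bases; promoters came from RefSeq on GRCm38.p6. limma 3.58.1 (R 4.3.3) was given the deposited means and variances and fitted a trend on the mean. The design written at the start foresaw these deposited values. Alternatives were the Wald q-value, limma, limits of 10 and 100 counts, centring on the median or on 50 classes of GC content, division by *Actb* and a q-value under 0.1. Python 3.11.15 with pandas 2.3.3 and matplotlib 3.10.9 was used.

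The genes named were all tested member transcripts, *Setd2*, *Cdh1*, *Vim*, *Cbfb*, E protein and Id genes, and in each other list up to 3 rises and 3 falls by a called transcript with a mean of at least 100 counts. *Gm29100*, *Zeb2os* and *Runx2os1* were named because their exons overlap a member. One gene that the rule names is not reported here. The members and lists were chosen with earlier results of these data known.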

Additional observations from a re-analysis of the deposited data

How the results depend on the processing

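Of the 3 member transcripts called, *Twist2-201* was the 1 called by limma's moderated test (1 of 22, against 9.68% of all transcripts). At a q-value under 0.1, 6 of 22 passed (3 higher, 3 lower), against 24.8% of all. The deposited Wald q-value and the limit of 10 counts gave 3 called members each, where they called 18.2% and 16.8% of all transcripts. The limit of 100 counts gave 4 of 17, against 34.2% of all, and centring on the median gave 4 of 22, against 17.9%. Correction for GC content gave 3, against 15.4% of all, with *Prrx2-201* (-0.64, q = 0.0197) in place of *Snai1-201* (0.30, q = 0.0940). Division by *Actb*, itself higher in KD (log2(fold change) 0.46), left 0 members higher and 11 lower, where 33.5% of all transcripts were called. *Twist2-201* was then at 0.28 (q = 0.122), *Snai1-201* at 0.01 (q = 0.956), and *Runx1-201* (-0.39) and *Runx2-202* (-0.38) reversed. *Setd2* kept its call and direction under each of its alternatives. For the lists, called transcripts of the partner genes went from 11 of 87 to 19 of 87 with the Wald q-value, against 18.2% of all transcripts. With the limit of 100 counts they were 19 of 68, and those of the turnover list went from 7 of 47 to 14 of 40. Those of the mesenchymal markers went from 17 of 66 to 26 of 55, and of the other cell types from 0 of 21 to 1 of 4. At that limit 34.2% of all transcripts were called. For the paralogs the Wald q-value and that limit each gave 1 in place of 0, which was *Shox2*. That limit leaves fewer transcripts to adjust over. The causes of the other shifts were not tested. No paired analysis was possible because the tables used here give no value per library, and fits with the replicate number as a block, with DESeq2 or without 1 library were not run for the same reason.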

Other observations

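The likelihood ratio and Wald p-values diverged for members with an effect near 0 and a high level. For *Zeb1* the likelihood ratio p-value was 0.0240 and the Wald p-value 0.777 at a log2(fold change) of -0.02, and for *Twist1* they were 0.0728 and 0.989 at -0.00. Over all transcripts with a Wald statistic under 0.5 in size, 443 of 1179 with a mean of at least 1000 counts (37.6%) had a likelihood ratio p-value under 0.05, against 44 of 2236 (1.97%) from 100 to 1000 counts and 0 of 6131 below 100. None of these was called at a q-value under 0.05, and 4265 of the 4266 called transcripts also had a Wald q-value under 0.05. The cause was not tested. Of the member transcripts, 12 of 22 (54.5%) had an unadjusted likelihood ratio p-value under 0.05 and 8 of 22 (36.4%) an unadjusted Wald p-value under 0.05, against 34.0% and 26.7% of all transcripts. These shares were not matched for level, and 17 of the 22 had a mean of at least 100 counts. When q-values were taken over transcripts of at least that mean, 4 of 17 members were called, against 34.2% of all such transcripts.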
